A study of Mus musculus with 27 samples.

Results

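Hand1 and Hand2 are the 2 members of the HAND family of basic helix-loop-helix (bHLH) transcription factors in the mouse, and they were followed here by their gene symbols on the array platform. Each was read by 1 probe set, so the 2 genes made up 2 of the 19935 genes measured. Hand1 was probe set 10386110 (gene identifier 15110) and Hand2 was probe set 10571860 (gene identifier 15111).

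The study profiled total RNA of mouse embryonic hearts dissected at E11.5, all of a mixed C57Bl/6/BLKSW strain, on 27 Affymetrix arrays with 1 array per sample. The samples formed 6 groups by genotype. They were Brg1+/- (6 arrays), Tbx5+/- (5), Nkx2-5+/- (4), Tbx5+/-;Brg1+/- (3), Nkx2-5+/-;Brg1+/- (3) and wild type (6). All mutant groups carried heterozygous deletions, and the compound groups combined loss of Brg1 with loss of 1 of the other factors. Brg1 is the product of Smarca4 and the ATPase of a chromatin remodelling complex, while Tbx5 and Nkx2-5 are cardiac transcription factors of the T-box and homeobox families. Which part of each gene was deleted, and whether an array came from 1 embryo or from pooled hearts, is not given in the labels. The p-values therefore measure the spread between arrays, which may be partly technical.

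HAND proteins bind E-box DNA as dimers, with E proteins such as Tcf3, Tcf4 and Tcf12 as the usual partners, and Id proteins limit this by binding the E proteins without binding DNA. In the developing mouse heart, Hand1 is strongest in the future left ventricle and the outer curvature. Hand2 is broader, is most closely tied to the right ventricle and outflow tract, and is also active in the endocardium, epicardium, pharyngeal arches and sympathetic lineage. Gata4 and Gata6, zinc-finger factors of the heart, act on a cardiac enhancer of Hand2, and Nkx2-5 is known as an upstream factor of Hand1 expression in the left ventricle. The comparisons address how the mRNA of these ventricular regulators responded to reduced dosage of Brg1, of each factor, and of both.

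The Hand2 promoter is shown because Nkx2-5 and GATA factors are among the genes whose levels are set beside Hand2 below. The RefSeq-based table of promoters (bases just before and after the gene start, build GRCm38.p6) holds Hand2 at chr8:57320733-57321032 on the plus strand, and the window has a GC content of 50.3%. Hand1 was not matched in that table. Capitals mark matches, on either strand, to the E-box CANNTG, the Nkx2-5 core AAGTG and the GATA core GATAA.
Hand2: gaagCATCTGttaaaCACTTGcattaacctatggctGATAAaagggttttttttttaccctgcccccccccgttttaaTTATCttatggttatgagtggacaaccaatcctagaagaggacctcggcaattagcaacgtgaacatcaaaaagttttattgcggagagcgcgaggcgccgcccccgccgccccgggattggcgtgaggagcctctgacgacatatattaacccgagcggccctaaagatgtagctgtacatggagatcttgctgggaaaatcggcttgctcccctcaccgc

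The window held 2 E-boxes, CATCTG and CACTTG, whose first bases lay at -246 and -235 from the gene start. The 1 match to AAGTG was read on the minus strand (CACTT on the printed strand) and lay inside the second E-box. GATAA matched at -214 on the plus strand and at -172 on the minus strand, and the T-box core GGTGTGA had 0 matches. Such short words are common: of 32851 promoter windows of this length, 72.3% held CANNTG, 46.4% AAGTG, 25.4% GATAA and 4.0% GGTGTGA on either strand. The matches describe these letters and are not shown to be bound. The window also shares 223 bases with that of Hand2os1, a non-coding gene on the opposite strand, and the first bases of these neighbours lie 124 bases apart. Hand2os1 itself was not analysed here.

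Before the members are described, 2 arrays need naming. Smarca4 signal was 9.157 to 9.453 log2 on the arrays labelled Brg1+/- and 9.951 to 10.156 on wild-type arrays. The array labelled Nkx2-5+/- replicate 3 had a Smarca4 signal of 9.572, below all wild-type arrays, and a Nkx2-5 signal of 9.395, where the other Nkx2-5+/- arrays had 8.475 to 8.631. The array labelled Tbx5+/-;Brg1+/- replicate 3 had a Smarca4 signal of 10.012, within the wild-type range, where the other 2 arrays of that group had 9.51 and 9.636. Both go against their label, and results that rest on them are given with and without them. The same signals do not set only these arrays apart. Smarca4 was also below all wild-type arrays on Nkx2-5+/- replicate 1 (9.894) and Tbx5+/- replicate 1 (9.921). Nkx2-5 was 9.172 to 9.961 on wild-type arrays, and Nkx2-5+/-;Brg1+/- replicate 2 (9.235) lay in that range. Tbx5 signal was 8.507 to 8.901 on Tbx5+/- arrays and 8.395 to 8.957 on wild-type arrays, so this probe set did not separate these groups. Cardiomyocyte genes were high on all arrays (mean of 13 markers 10.9091 to 12.0254 log2), and the 10 measured erythroid markers, genes of red blood cells, are given beside the Hand2 results.

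No difference in Hand1 between genotypes passed the test in any of the 11 comparisons. The Nkx2-5+/- arrays had signals of 7.127, 7.714, 7.606 and 7.434 log2, averaging 7.47 ± 0.26 (SD, n = 4). Wild-type arrays ran from 7.077 through a median of 7.507 to 7.804 and averaged 7.48 ± 0.27 (SD, n = 6). All Nkx2-5+/- arrays lay within the wild-type range, and the difference was -0.01 (SE 0.16, 95% interval -0.33 to 0.32, limma adjusted p 0.991). The Nkx2-5 signal itself fell in these hearts, as given with the upstream factors below.

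Loss of Brg1 gave the same picture for Hand1. Brg1+/- arrays had a lowest value of 7.112, a median of 7.5075 and a highest value of 7.901, with a mean of 7.51 ± 0.32 (SD, n = 6). These arrays spread over nearly the whole range seen in the series, with 2 of 6 above all wild-type arrays. The Brg1+/- minus wild-type difference was 0.04 (SE 0.14, 95% interval -0.25 to 0.33, limma adjusted p 0.949).

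Tbx5+/- arrays had the highest Hand1 mean, with signals of 7.583, 7.338, 7.76, 7.797 and 7.611 and a mean of 7.62 ± 0.18 (SD, n = 5). The lowest group mean was that of the Tbx5+/-;Brg1+/- arrays, with 7.339, 7.49 and 7.372 and a mean of 7.40 ± 0.08 (SD, n = 3). The Tbx5+/- values still lay inside the wild-type range, with a difference of 0.14 (SE 0.15, 95% interval -0.16 to 0.45, limma adjusted p 0.9997). Between the compound and the single loss of Tbx5 the Hand1 difference was -0.22 (SE 0.18, 95% interval -0.59 to 0.15, limma adjusted p 0.9997), and the arrays overlapped. Set against wild type, the compound group differed by -0.08 (SE 0.17, 95% interval -0.43 to 0.28, limma adjusted p 0.989).

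Nkx2-5+/-;Brg1+/- arrays read 7.184, 7.72 and 7.789 for Hand1, a mean of 7.56 ± 0.33 (SD, n = 3). One array was near the bottom and the others near the top of the wild-type range. The difference was 0.09 against wild type (95% interval -0.27 to 0.44, limma adjusted p 0.922) and 0.09 against Nkx2-5+/- (95% interval -0.29 to 0.48, limma adjusted p 0.889). Against Brg1+/- arrays it was 0.05 for Nkx2-5+/-;Brg1+/- and -0.11 for Tbx5+/-;Brg1+/-, with limma adjusted p of 0.965 and 0.868.

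The 6 Hand1 means spanned 0.22 log2 in the descending order Tbx5+/-, Nkx2-5+/-;Brg1+/-, Brg1+/-, wild type, Nkx2-5+/- and Tbx5+/-;Brg1+/-. No neighbours in that order differed by more than the larger of their SDs, and the arrays of all neighbouring groups overlapped. Hand1 varied widely within groups, and its residual SD of 0.2625 was larger than that of 85.2% of genes. Differences between groups are therefore estimated less precisely for Hand1 than for most genes. That spread is between arrays and was not split into measurement error and differences between hearts.

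**Figure D1:**
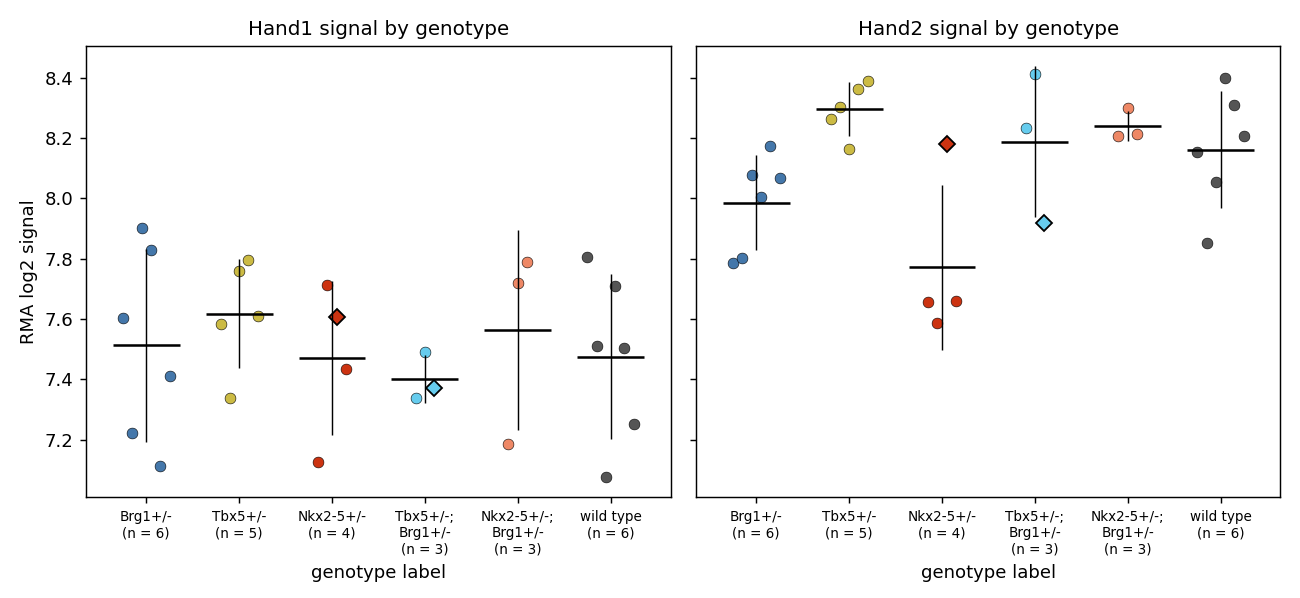
Signal of Hand1 (left) and Hand2 (right) on each of 27 arrays by genotype label, on the deposited log2 scale. Points are arrays, horizontal bars are group means, vertical bars are SD, and diamonds are the 2 arrays whose Smarca4 signal goes against their label; levels of the 2 probe sets are not comparable with each other. All Hand1 groups overlap, while 3 of the 4 Nkx2-5+/- arrays have Hand2 signals of 7.587 to 7.659, below every other array.

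Hand2 was lower in Nkx2-5+/- hearts. The Nkx2-5+/- arrays had Hand2 signals of 7.657, 7.587, 8.18 and 7.659, averaging 7.77 ± 0.27 (SD, n = 4). Wild-type arrays ran from 7.852 through a median of 8.179 to 8.399, averaging 8.16 ± 0.19 (SD, n = 6). Of the 4 Nkx2-5+/- arrays, 3 lay below all wild-type arrays, and the exception was replicate 3, the array that goes against its label. Hand2 fell by 0.39 on the log2 scale (SE 0.12, 95% interval -0.63 to -0.15, limma adjusted p 0.0402), which is 1.31-fold lower, and an exact permutation test of the group means gave p = 0.0381 (two-sided, 210 splits). In this comparison 7.89% of all genes were called at a limma adjusted p under 0.05, and 5.16% of all genes were called as lower, so Hand2 was 1 of many. In these bulk samples, fewer Hand2-positive cells and less Hand2 RNA per cell cannot be told apart.

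Without the 2 arrays that go against their label, Hand2 fell by 0.527 in Nkx2-5+/- hearts (limma adjusted p 6.43e-04). Those arrays were picked after seeing the data. Replicate 3 also had the highest Hand2 signal of the Nkx2-5+/- group, so leaving it out had to deepen the fall. The call at all 4 arrays was close to the threshold: it was lost without Nkx2-5+/- replicate 1, 2 or 4 (limma adjusted p 0.110, 0.207 and 0.141) and without wild-type replicate 1, 4, 5 or 6 (0.0699, 0.1003, 0.0832 and 0.0584), with differences of -0.527 to -0.33 over all 10 omissions. It was also lost with array medians equalised (-0.334, limma adjusted p 0.0655) and in a fit of the compared groups alone (-0.391, 0.182). Erythroid markers moved with it. The mean of the 10 measured erythroid markers was 11.1406, 11.2268, 9.0876 and 11.0133 log2 on the Nkx2-5+/- arrays, against a wild-type range of 8.4384 to 10.246. Of the 10, 4 rose at a limma adjusted p under 0.05, where 2.72% of all genes were called as higher. With the erythroid marker mean as a covariate the Hand2 difference was -0.119 (limma adjusted p 0.791), and with the mean of the cardiomyocyte markers as a covariate it was -0.153 (0.729). Nearly all other genes lost their call too. Of all genes, 1572 were called in the main fit and 3 with the erythroid covariate. With the cardiomyocyte covariate 4 were called, and 4 in the fit of the compared groups alone. The part of the markers in the Hand2 difference was not tested.

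Hand2 was not called in Brg1+/- or Tbx5+/- hearts. Brg1+/- arrays ran from 7.786 through a median of 8.0375 to 8.175 and averaged 7.99 ± 0.16 (SD, n = 6). The difference from wild type was -0.18 (SE 0.11, 95% interval -0.39 to 0.04, limma adjusted p 0.592, exact permutation p 0.113), with 2 of 6 arrays below all wild-type arrays. Only 2 genes, 0.0100% of those tested, were called in this comparison. The erythroid marker mean was 9.0642 to 11.0374 on Brg1+/- arrays, with all 10 markers above 0 in difference and 0 called, and with it as a covariate the Hand2 difference was 0.019. Of all genes, 56.29% lay below 0 in this comparison.

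In Tbx5+/- hearts, Hand2 had the highest group mean of the series. The arrays read 8.262, 8.302, 8.165, 8.362 and 8.388, averaging 8.30 ± 0.09 (SD, n = 5), and none lay above the highest wild-type array. The difference of 0.13 (SE 0.11, 95% interval -0.09 to 0.36, limma adjusted p 0.9997) was within the spread of the wild-type arrays. No gene was called by limma in this comparison, although 788 had an unadjusted p under 0.05.

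With combined loss of Tbx5 and Brg1 no Hand2 difference was called. The arrays read 8.234, 8.411 and 7.919, averaging 8.19 ± 0.25 (SD, n = 3), where 8.411 was the highest Hand2 value of the series and the lowest was replicate 3, which goes against its label. The differences were 0.03 against wild type (95% interval -0.24 to 0.29, limma adjusted p 0.992), -0.11 against Tbx5+/- (-0.38 to 0.17, 0.9997) and 0.20 against Brg1+/- (-0.06 to 0.47, 0.661). Without the 2 arrays that go against their label these became 0.161, 0.027 and 0.337, and none was called. With all arrays, limma called 0 genes in each of these comparisons, while 873, 494 and 1626 genes had an unadjusted p under 0.05.

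In hearts with combined loss of Nkx2-5 and Brg1, no Hand2 difference from wild type was called. The Nkx2-5+/-;Brg1+/- arrays read 8.207, 8.298 and 8.214, a narrow group averaging 8.24 ± 0.05 (SD, n = 3), and all lay inside the wild-type range. The difference from wild type was 0.08 (SE 0.13, 95% interval -0.19 to 0.34, limma adjusted p 0.902), and limma called 0.0351% of all genes in this comparison.

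Against Nkx2-5+/- arrays, all 3 compound arrays were higher, with no overlap even with replicate 3. The Hand2 difference was 0.47 (SE 0.14, 95% interval 0.18 to 0.76), with a limma adjusted p of 0.0899, which misses the threshold. The exact permutation p was 0.0571 over 35 splits. Of all genes, 4.13% had compound arrays entirely above the Nkx2-5+/- arrays, while 0.0401% were called by limma. Without Nkx2-5+/- replicate 3 the difference was 0.605 (limma adjusted p 0.003579), and without both arrays that go against their label it was 0.605 (0.00221). Leaving out the highest Hand2 array of the Nkx2-5+/- group had to widen the difference. With all arrays kept but weighted by their fit it was 0.541 (0.001547). With the erythroid marker mean as a covariate the difference was 0.174 (limma adjusted p 0.9988), and with the cardiomyocyte marker mean it was 0.255 (0.4845). Erythroid marker means were 9.0255, 8.1892 and 10.0609 on the compound arrays and, as given above, over 11 on 3 of the 4 Nkx2-5+/- arrays.

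Compared with Brg1+/- hearts, Hand2 in the Nkx2-5+/-;Brg1+/- hearts was higher by 0.25 (SE 0.13, 95% interval -0.01 to 0.52, limma adjusted p 0.590). The arrays of the groups did not overlap, as was so for 2.47% of all genes in this direction, and the exact permutation p was 0.0476 over 84 splits, unadjusted. limma called 0.0201% of genes here. The erythroid marker mean was 8.1892 to 10.0609 on compound arrays and 9.0642 to 11.0374 on Brg1+/- arrays, and with it as a covariate the Hand2 difference was 0.037 (limma adjusted p 0.9869).

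The interaction asks whether the effect of Brg1 loss differed between hearts with and without Nkx2-5 loss. For Hand2 it was 0.64 (SE 0.18, 95% interval 0.2859 to 1.0036, limma adjusted p 0.0318), a factor of 1.56: the Brg1 effect was 0.47 among Nkx2-5+/- hearts and -0.18 among hearts with intact Nkx2-5. Of all genes, 4.95% were called for this interaction and 2.23% were called in the positive direction. Without the 2 arrays that go against their label, the interaction was 0.781 (limma adjusted p 9.11e-04). Leaving out Nkx2-5+/- replicate 3, the highest Hand2 array of its group, had to raise the interaction. It lost its call with the erythroid marker mean as a covariate (0.156, limma adjusted p 1) or the cardiomyocyte marker mean (0.327, 0.49), in a fit of the compared groups alone (0.645, 0.0666), and without any 1 of 8 arrays: Brg1+/- replicate 2 (limma adjusted p 0.06023), Nkx2-5+/- replicate 1 (0.06375), 2 (0.09533) or 4 (0.06721), Nkx2-5+/-;Brg1+/- replicate 1 (0.08514) or 2 (0.1019), and wild-type replicate 4 (0.05825) or 5 (0.05525), with values of 0.583 to 0.781 over all 19 omissions. The Nkx2-5+/- and Nkx2-5+/-;Brg1+/- values enter both this interaction and the comparisons above, so they are not separate evidence.

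For Hand1 the same interaction was 0.06 (SE 0.24, 95% interval -0.43 to 0.54, limma adjusted p 0.939). The interaction of Tbx5 with Brg1 was -0.26 for Hand1 (SE 0.23, 95% interval -0.72 to 0.21) and 0.07 for Hand2 (SE 0.17, 95% interval -0.28 to 0.42), both with a limma adjusted p of 1. No gene was called by limma for the Tbx5 interaction, and 606 had an unadjusted p under 0.05.

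**Figure D2:**
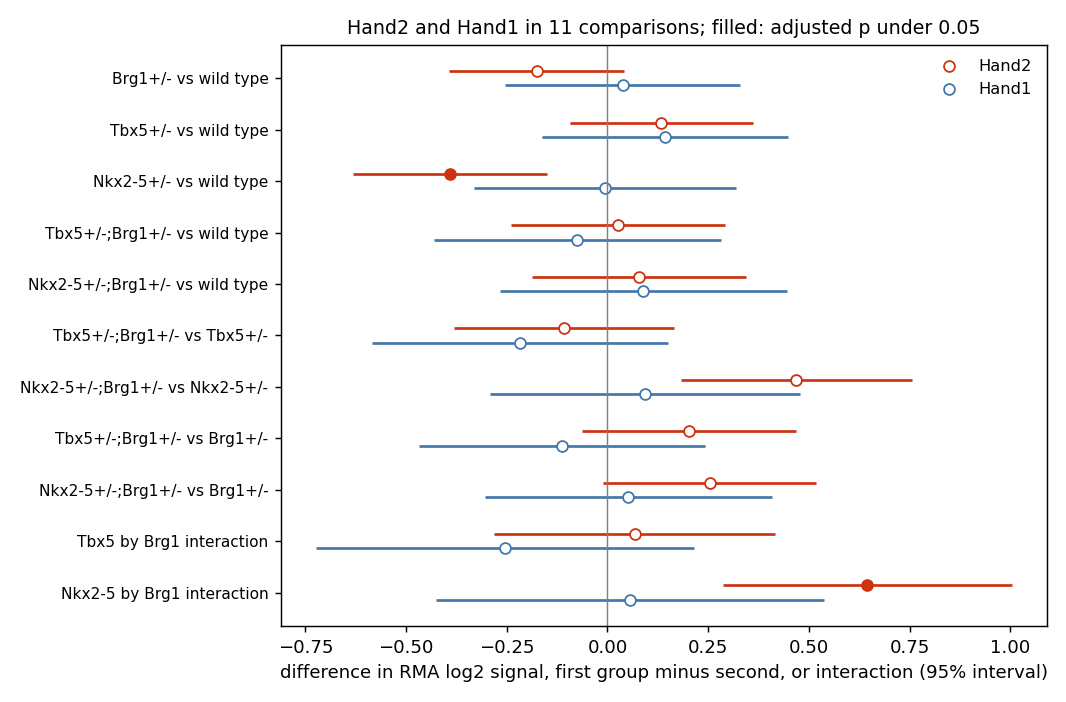
Difference in log2 signal (first group minus second) or interaction for Hand2 (red) and Hand1 (blue) in 11 comparisons, with 95% intervals from limma; filled circles have an adjusted p under 0.05. Hand2 is filled for Nkx2-5+/- vs wild type (-0.39) and for the Nkx2-5 by Brg1 interaction (0.64), and every Hand1 interval includes 0.

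The Hand2 means spanned 0.53 log2 in the descending order Tbx5+/-, Nkx2-5+/-;Brg1+/-, Tbx5+/-;Brg1+/-, wild type, Brg1+/- and Nkx2-5+/-. As for Hand1, no neighbours in the order differed by more than the larger SD and all neighbouring ranges overlapped, so only groups farther apart separated. The residual SD of 0.1826 was larger than that of 43.1% of genes. No relation between Hand1 and Hand2 passed the test: after removing group means the correlation over 27 arrays was r = 0.158 and rho = 0.152 (permutation p 0.4636, adjusted over 31 relations 0.6649), and 0.144 without the 2 arrays farthest from the median.

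Hand2 followed the main axis of variation among these hearts and Hand1 did not. The first principal component of all genes took 26.1% of the variance. The absolute correlation with it was 0.93 for Hand2 and 0.17 for Hand1, and 6.08% of genes exceeded 0.8. Within groups, Hand2 was lower on arrays with higher erythroid marker signal (r = -0.824, rho = -0.799, permutation p 2.0e-05 for r and 3.0e-05 for rho, adjusted over the 31 relations 6.2e-04 and 9.3e-04), and r was -0.755 without the 2 arrays farthest from the median. Every value without the 2 farthest arrays used group means that still included them. Such values therefore do not show what the relation would be free of those arrays. Hand1 showed no such relation (r = -0.106, rho = -0.090, permutation p 0.6382 for r, adjusted 0.7065). Hand2 was higher on arrays with higher cardiomyocyte marker signal (r = 0.720, rho = 0.607, permutation p 0.003 for r, adjusted 0.02325; 0.570 without the 2 farthest arrays).

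**Figure D3:**
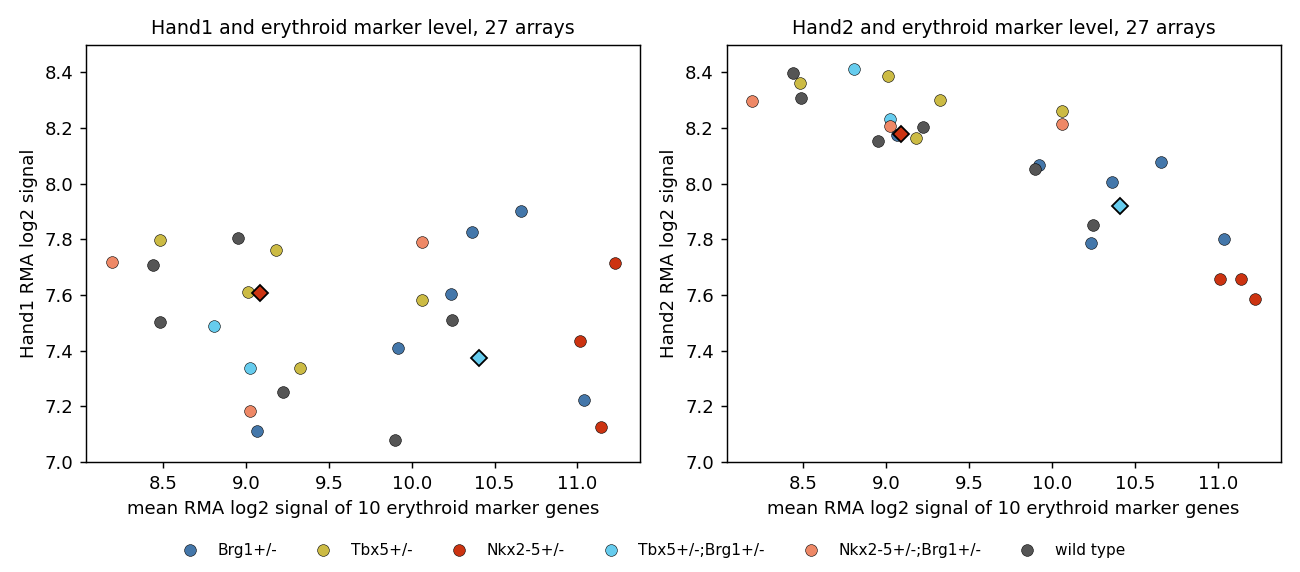
Hand1 (left) and Hand2 (right) log2 signal on each of 27 arrays against the mean log2 signal of the 10 measured erythroid markers, coloured by genotype label; diamonds are the 2 arrays whose Smarca4 signal goes against their label. Hand2 declines as the marker mean increases (within-group r -0.824), with 3 Nkx2-5+/- arrays at the lower right and Nkx2-5+/- replicate 3 among the wild-type points; Hand1 shows no slope (r -0.106).

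Hand1 was related to 1 list. It was lower on arrays with a higher mean of 8 endothelial and endocardial markers (r = -0.641, rho = -0.615, permutation p 0.00175 for r, adjusted 0.02036; -0.536 without the 2 farthest arrays). The left ventricle and outer curvature list holds chamber myocardium genes of the territory where Hand1 is active, not genes specific to the left ventricle. With its mean, Hand1 had a within-group correlation of r = 0.343 and rho = 0.385 (permutation p 0.09974 for r, adjusted 0.2577). The mean of the right ventricle and outflow tract list, the territory of Hand2, correlated with Hand2 at r = 0.592 and rho = 0.634 (permutation p 0.00662 for r, adjusted 0.0342), and at 0.412 without the 2 farthest arrays. The mean of the left ventricle and outer curvature list correlated with Hand2 at r = 0.659 and rho = 0.526 (permutation p 0.01177 for r, adjusted 0.05212, and r 0.517 without the 2 farthest arrays). The difference between these relations was not tested. The right ventricle and outflow tract genes did not all follow Hand2. With group differences kept, r was 0.66 for Sema3c, 0.55 for Wnt11, 0.52 for Rspo3 and 0.38 for Isl1. It was 0.1 for Fgf10 and -0.11 for both Fgf8 and Tbx1.

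Among the dimer partners of HAND proteins and their inhibitors, Id2 and Id3 fell in Nkx2-5+/- hearts. Of 9 genes in this list (E proteins, Twist factors and Id proteins), 2 fell in Nkx2-5+/- hearts and 0 rose, where 5.16% of all genes were called as lower. The count was not tested against that share. The median difference was -0.2204 against -0.0113 for all genes. Both that fell were Id genes, which encode inhibitors of bHLH dimers: Id2 fell by 0.62 (SE 0.16, limma adjusted p 0.0205) and Id3 by 0.40 (SE 0.12, limma adjusted p 0.0353). The other Id genes were at -0.14 for Id1 and -0.24 for Id4, neither called. The E protein genes gave -0.22 for Tcf12, -0.02 for Tcf4 and 0.13 for Tcf3, none called. In the Nkx2-5 by Brg1 interaction 0 of 9 were called (median 0.3528, all genes 0.0284), where 4.95% of all genes were called. None of the 9 was called in any other comparison. The list mean followed Hand2 within groups at r = 0.658 and rho = 0.571 (permutation p 0.00508 for r, adjusted 0.0315; 0.5 without the 2 farthest arrays).

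Several upstream factors and signals fell in the same hearts as Hand2. Of 13 measured genes, 5 fell in Nkx2-5+/- hearts and 0 rose, with a median of -0.3328. Among all genes 5.16% were called as lower in this comparison. The 5 that fell include Nkx2-5 itself (-0.85, SE 0.17, limma adjusted p 0.0070), the gene deleted in this group, whose fall follows from the genotype. Nkx2-5 also enters the list median and mean. The others were Bmp4, a growth factor ligand (-0.61, SE 0.13, 0.0102), Smyd1, a muscle chromatin factor needed for Hand2 expression in mouse (-0.76, SE 0.17, 0.0121), Gata6 (-0.52, SE 0.13, 0.0170) and Tbx5 (-0.49, SE 0.13, 0.0225). Gata4 was at -0.33 (limma adjusted p 0.0983) and Mef2c, a MADS-box factor of heart muscle, at -0.36 (0.169), neither called.

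In the Nkx2-5 by Brg1 interaction 4 of the 13 were called, all positive as Hand2 was: Bmp4 (0.97, limma adjusted p 0.0166), Tbx5 (0.88, 0.0189), Gata6 (0.81, 0.0209) and Gata4 (0.65, 0.0379). The list median was 0.6033 against 0.0284 for all genes, of which 2.23% were called as positive. In Nkx2-5+/-;Brg1+/- hearts, as for Hand2, the differences from wild type were small for Gata6 (0.00), Bmp4 (-0.04) and Tbx5 (-0.06), whereas Nkx2-5 stood at -0.55 (limma adjusted p 0.521) and Smyd1 at -0.44 (limma adjusted p 0.644), neither called. In Brg1+/- hearts 11 of 13 lay below 0 with a median of -0.2015 and 0 called. Of all genes, 56.29% lay below 0 there, with a median of -0.0215, and the count was not tested against that share. The list mean followed Hand2 within groups (r = 0.727, rho = 0.710, permutation p 0.00197 for r, adjusted 0.02036; 0.602 without the 2 farthest arrays).

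**Figure D4:**
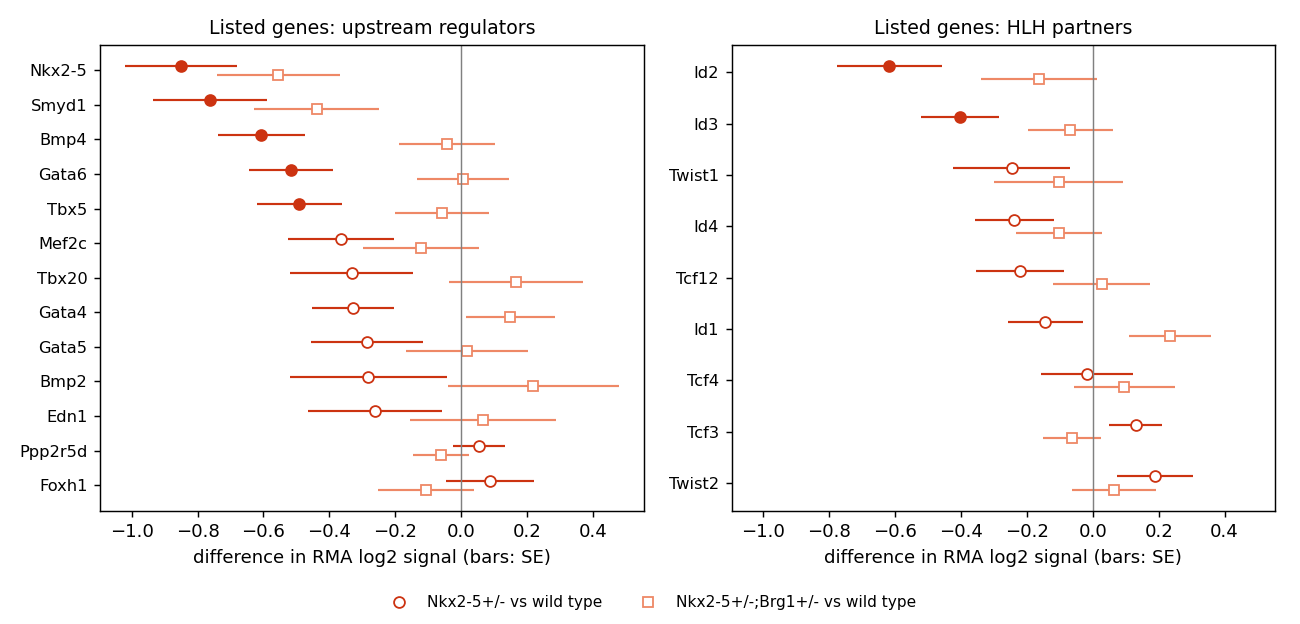
Difference from wild type in log2 signal (bars are SE) of the 13 measured upstream regulators (left) and the 9 HAND partner and inhibitor genes (right), in Nkx2-5+/- hearts (circles) and Nkx2-5+/-;Brg1+/- hearts (squares); filled symbols have a limma adjusted p under 0.05. In Nkx2-5+/- hearts 5 upstream genes, the deleted Nkx2-5 among them, and Id2 and Id3 are filled on the negative side, and no square is filled.

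Some genes of the cardiac territories fell in the same hearts, and most did not pass the test. Of 8 left ventricle and outer curvature genes, 3 fell in Nkx2-5+/- hearts: Smpx, a small muscle protein (-0.78, SE 0.14, limma adjusted p 0.0033), Myl2, the ventricular myosin light chain (-0.42, SE 0.10, 0.0150), and Nppa, the atrial natriuretic peptide gene (-0.78, SE 0.22, 0.0328). The list median was -0.4278, and 5.16% of all genes were called as lower in this comparison. The counts of these lists were not tested against that share. Of 7 measured right ventricle and outflow tract genes, 2 fell, Sema3c, a guidance ligand of the outflow tract (-0.78, SE 0.17, limma adjusted p 0.0090), and Rspo3, a Wnt pathway ligand (-0.69, SE 0.19, 0.0285), with 4 of 7 below 0 and a median of -0.1041. Of all genes, 52.39% lay below 0, so the 4 of 7 is near that share. In the Nkx2-5 by Brg1 interaction Smpx was called (0.76, limma adjusted p 0.0289) and no other gene of these lists was, where 2.23% of all genes were called as positive.

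Outside the heart muscle, 0 of 4 sympathoadrenal genes and 0 of 8 pharyngeal arch genes were called in Nkx2-5+/- hearts, with medians of 0.0944 and -0.0145. With 7.89% of all genes called, counts of 0 in lists of this size are near the background, and without the 2 arrays that go against their label 1 pharyngeal arch gene rose. These are non-cardiac territories of the HAND genes, and the sympathoadrenal mean was low in all groups (5.413 to 5.9235 log2).

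Some cell type markers were called in the same comparison. In Nkx2-5+/- hearts 7 of 13 cardiomyocyte markers (median -0.4681), 2 of 8 epicardium, 2 of 4 smooth muscle and 2 of 6 macrophage markers fell, and 4 of 10 erythroid markers rose (median 1.4425). Among all genes 5.16% were called as lower and 2.72% as higher. The counts were not tested against these shares, and counts of 2 in such short lists are not read as a result. In the Nkx2-5 by Brg1 interaction all 10 erythroid markers were called, each below 0 (median -2.5363), where 2.72% of all genes were called as negative. Called as positive were 2 of 8 epicardium, 2 of 6 macrophage, 1 of 13 cardiomyocyte and 1 of 4 smooth muscle markers, where 2.23% of all genes were. No marker of the other cell type lists was called. The interaction counts were not tested against these shares either. None of the genes of any list, upstream factors and partners included, was called in Nkx2-5+/- hearts or in the interaction with the erythroid mean as a covariate, where 3 and 0 of all 19935 genes were called. Without the 2 arrays that go against their label, 11 of 13 upstream genes, 3 of 9 partner and inhibitor genes, 6 of 8 left ventricle and outer curvature genes, 2 of 7 right ventricle and outflow genes and 11 of 13 cardiomyocyte markers fell, and 10 of 10 erythroid markers rose in Nkx2-5+/- hearts. In that fit 4346 of 19935 genes were called in either direction, and the share called as lower is not given. The counts of genes that fell therefore have no matching background, and those for partners and for right ventricle genes are not read as a result. Both of these repeats were chosen after seeing the data.

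The genes whose pattern over the 27 arrays was most like that of Hand2, among 11257 genes with a mean of at least 6 log2, were Mta1 (r = 0.9321), Gata6 (0.9295), Dusp22 (0.9281), Polr2m (0.9266) and Tmem132a (0.9213). Hand2 had 305 genes with r over 0.8. Of these 5, Gata6 is the one on the upstream list. Its signals on Nkx2-5+/- arrays were 9.596, 9.337, 10.149 and 9.659, so replicate 3 stood above the others as it did for Hand2, and on Nkx2-5+/-;Brg1+/- arrays they were 10.201, 10.23 and 10.189.

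For Hand1 the most similar were Xrcc1 (r = 0.695), Gemin8 (0.6847), Dnajc24 (0.6742), Ring1 (0.6725) and Neu1 (0.6539), and 0 genes had r over 0.8. Over 0.6, Hand1 had 31 genes and Hand2 had 2089. These correlations are over the same arrays that differ in the marker levels described above, and they describe likeness of pattern alone.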

How the data were processed

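Biotin-labelled total RNA of mouse hearts was measured on 27 Affymetrix arrays. For 28815 probe sets the authors deposited log2 signals. RMA and Affymetrix Power Tools are the tools named in the submitters' processing notes, and versions and a genome build are not given in the sources used here. The log2 values were used as deposited. Probe sets were named through the platform annotation: 21780 had 1 gene symbol, 1605 several and 5430 none. Those with 1 symbol were kept, with the highest-mean probe set for each of 998 genes with several, leaving 19935 genes, of which 19853 matched the GRCm38.p6 gene table by identifier. Arrays carry no counts, so their number limits the precision.

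Groups came from the genotype labels. One limma 3.58.1 fit in R 4.3.3 over all arrays and genes used a mean per group and untrended empirical Bayes moderation, with 21 residual degrees of freedom and 6.71 from the prior. There were 11 two-sided comparisons, each adjusted by Benjamini-Hochberg over all genes. Calls were made below an adjusted p of 0.05. The fit was tested on simulated data. Hand1 and Hand2 were also compared by exact permutation of arrays. Within-group correlations used 100000 permutations within groups, adjusted over 31 relations, each of which was also recomputed without the 2 arrays farthest from the median. The members, the 15 gene lists and the tests were chosen with earlier results of these data known. From a list, up to 4 called genes with the smallest p were named per comparison, beside Hand1, Hand2 and the genes most correlated with each; further members were named after their values were seen. The labels name no array batch. Alternatives covered normalization, filtering, variance prior, array weights, marker covariates, a replicate block, the compared groups alone and each array left out.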

Additional observations from a re-analysis of the deposited data

Results flagged for a closer look

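Hand2 in Nkx2-5+/- hearts had 1 array far from the others of its group: replicate 3 at 8.180 log2, where the other 3 arrays had 7.587 to 7.659. On the same array Nkx2-5 (9.395), the erythroid marker mean (9.088) and the cardiomyocyte marker mean (12.025) also stood apart from the rest of the group. Tbx5 stood apart on Tbx5+/- replicate 3 (8.507) and on wild-type replicate 6 (8.957). Chance puts about 1 in 20 groups past this limit, and 32 groups were tested. No Hand1 value stood apart in any group of 4 or more arrays.

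The effect of Brg1 loss on Hand2 differed between hearts with and without Nkx2-5 loss by 0.6448 log2 (limma adjusted p 0.0318). That call was lost without any 1 of 8 arrays, and with a marker mean as a covariate.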

How the results depend on the processing

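No Hand1 difference had an adjusted p under 0.05 in any of 123 repeats without 1 array or 130 other repeats. Some uncalled Hand1 values changed sign. Hand1 in Nkx2-5+/- vs wild type gave 0.054 after quantile normalization, 0.052 with array medians equalised, 0.045 with the erythroid covariate and 0.114 with the cardiomyocyte covariate. With array weights Hand1 was -0.043 for Brg1+/- vs wild type and -0.238, -0.129 and -0.195 for Nkx2-5+/-;Brg1+/- against wild type, Nkx2-5+/- and Brg1+/-, and with the cardiomyocyte covariate -0.014 against Nkx2-5+/-. The Hand1 Nkx2-5 by Brg1 interaction was -0.027 with medians equalised, -0.086 with array weights, -0.034 with the erythroid and -0.103 with the cardiomyocyte covariate.

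Hand2 in Nkx2-5+/- vs wild type lost its call with medians equalised (-0.334, limma adjusted p 0.0655), the replicate block (-0.341, 0.0999), the erythroid (-0.119) or cardiomyocyte (-0.153) covariate, and the compared groups alone (-0.391, 0.182). In that comparison 3 of all genes were called with the erythroid covariate, 4 with the cardiomyocyte covariate and 4 with the compared groups alone. The Hand2 Nkx2-5 by Brg1 interaction lost its call with the erythroid (0.156) or cardiomyocyte (0.327) covariate and with the compared groups alone (0.645, 0.0666). Hand2 in Nkx2-5+/-;Brg1+/- vs Nkx2-5+/- passed the threshold with array weights (0.541) and without the 2 arrays against their label (0.605). Against Brg1+/- (0.254) the exact permutation p was 0.0476, but this is unadjusted, and the limma adjusted p was 0.590. Hand2 changed sign, uncalled, for Brg1+/- vs wild type (0.019) and the Tbx5 by Brg1 interaction (-0.087) with the erythroid covariate, and for Tbx5+/-;Brg1+/- vs Tbx5+/- without those 2 arrays (0.027). The cause of these changes was not tested.

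Leaving out each array in turn gave these ranges where a sign or call changed. For Hand1 they were -0.042 to 0.118 (Brg1+/- vs wild type), -0.087 to 0.109 (Nkx2-5+/- vs wild type), -0.024 to 0.279, -0.02 to 0.284 and -0.061 to 0.241 (Nkx2-5+/-;Brg1+/- against wild type, Nkx2-5+/- and Brg1+/-), and -0.058 to 0.247 (Nkx2-5 by Brg1). For Hand2 they were -0.527 to -0.33 (Nkx2-5+/- vs wild type), -0.085 to 0.161 and -0.219 to 0.027 (Tbx5+/-;Brg1+/- against wild type and Tbx5+/-), 0.408 to 0.605 (Nkx2-5+/-;Brg1+/- vs Nkx2-5+/-), -0.043 to 0.203 (Tbx5 by Brg1) and 0.583 to 0.781 (Nkx2-5 by Brg1). The number of genes called in Nkx2-5+/- vs wild type, 1572 with all arrays, was 66 to 4368 over these omissions and 3 to 4346 over the other settings, and for the Nkx2-5 by Brg1 interaction (987) it was 6 to 3224 and 0 to 4235. The replicate numbers were not taken as pairing the arrays, since in no comparison did every same-numbered pair of residuals correlate above 0.1: the range was -0.153 to 0.008 for Nkx2-5+/- and wild type, -0.073 to 0.386 for Brg1+/- and wild type, and 0.032 to 0.137 for Nkx2-5+/-;Brg1+/- and Nkx2-5+/-. With the replicate block, the Hand2 interaction was 0.674 (limma adjusted p 0.0255) and the block changed no other Hand1 or Hand2 call than that given above.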
